A study of Rattus norvegicus with 12 samples.

Results

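Voltage-gated sodium channels carry the inward current that starts and propagates the action potential. Each channel has 1 pore-forming alpha subunit, which conducts sodium, and auxiliary beta subunits, which are single-pass membrane proteins that modify gating and hold the channel at the cell surface and to its partners. In the developing forebrain the alpha subunits have distinct roles: Scn3a (NaV1.3) is known as an early, largely prenatal and neonatal channel in rodents, Scn2a (NaV1.2) serves excitatory neurons and their young axons, Scn8a (NaV1.6) takes over at the axon initial segment and nodes with maturation, and Scn1a (NaV1.1) is prominent in fast-spiking inhibitory neurons.

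The 7 genes described here are the 4 alpha subunits Scn1a, Scn2a, Scn3a and Scn8a and the 3 beta subunits Scn2b, Scn3b and Scn4b, taken by gene name from the array annotation, where Scn2a may also be written Scn2a1. They held 7 probes (16 spots) of 30367 probes on the array. The set was chosen by family name and selected on 1 measured result, the lower log2 intensity of Scn2a after betamethasone in these samples, so the comparison of betamethasone with control animals describes the members and was not used as a test of them.

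Prefrontal cortex was taken on postnatal day 15 from female Sprague-Dawley rats and total RNA was measured on 2-colour oligonucleotide arrays. The ketamine group had been exposed before birth to betamethasone, a synthetic glucocorticoid, and was given ketamine, a blocker of NMDA-type glutamate receptors, at 35 mg/kg on postnatal day 14. The betamethasone group had the same prenatal exposure and postnatal saline, and the control group had saline at both times. Betamethasone was given to the dams as 2 injections of 0.4 mg/kg each on gestational day 15. Per the labels, the postnatal treatment went to rats that showed infantile spasms, without saying in which groups these occurred, and 1 label field gives another age. Each group had 4 animals, measured in pairs on 2 arrays, with 1 animal of a pair in the Cy3 and the other in the Cy5 channel. The 2 control arrays were on 1 slide and the other 4 arrays on the second slide, and for both comparisons with control animals the slide's effect and the group's cannot be told apart. Ketamine and betamethasone animals shared a slide.

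By the flags of the scanner files, all 7 probes were well above background in all 12 samples, and none of their spots was saturated. For Scn3b these flags include the dark spot described below, on the array of betamethasone animals 3 and 4, where it could not be measured. All 5 neuronal markers (Snap25, Rbfox3, Tubb3, Syt1 and Map2) were also well above background in all 12. All 5 had higher means in ketamine than in betamethasone animals (median log2 difference 0.13), 4 had higher means in ketamine than in control animals (median 0.30) and 3 in betamethasone than in control animals (median 0.18), with none past the threshold. Of the 3 choroid plexus markers, Kl was above background in no sample, Ttr was well above it in 3 ketamine, 4 betamethasone and 4 control animals, and Folr1 in 4, 2 and 1. Ttr averaged 7.97 ± 0.81 in ketamine animals, 7.90 ± 0.72 in betamethasone animals and 8.94 ± 0.59 in control animals (log2, SD, n = 4 each). In bulk tissue, fewer cells of a type and less RNA per cell cannot be told apart. Among the 7 oligodendrocyte markers, 6 were lower in ketamine animals than in control animals (median log2 difference -0.49) and 7 were lower in betamethasone animals than in control animals (median -0.66), with none past the threshold. Their summed linear level ran from 32856 to 70809 in ketamine animals, 22225 to 52572 in betamethasone animals and 40969 to 86871 in control animals. Their part in the values below was not tested.

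Each member had a single 60-base probe. The last 30 bases of the Scn2a probe are shown because that probe alone of the 7 holds the polyadenylation hexamer, in capitals. The Scn3a probe is shown because its annotated position differs between the slides, and the Scn2b probe as an example of a beta subunit. In both, capitals mark the codons of the 1 reading frame without a stop codon. Such a frame is no mark of these probes, since those of Scn1a and Scn2a also have 1 and that of Scn8a has 2, while those of Scn3b and Scn4b have 0.
Scn2a: acgatcaagccaaaagAATAAAgatttttt
Scn3a: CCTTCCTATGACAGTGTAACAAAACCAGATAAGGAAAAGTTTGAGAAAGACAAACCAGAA
Scn2b: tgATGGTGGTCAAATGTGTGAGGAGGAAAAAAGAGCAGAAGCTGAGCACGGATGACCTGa
The whole Scn2a probe lies at chr3:47722732-47722791 (plus strand, rn4). The Scn2b probe lies at chr8:48078455-48078514 (plus strand, rn4). The Scn3a probe is on the minus strand of chromosome 3, at 47421917 to 47421976 in the annotation of the control slide and at 47496786 to 47496845 in that of the other slide, both named rn4. The other members' probes are at chr3:48238557-48238616 (Scn1a, minus strand), chr7:139794162-139794221 (Scn8a, plus), chr8:43253930-43253989 (Scn3b, plus) and chr8:48106487-48106546 (Scn4b, plus). The longest run shared by any 2 of the 7 probes was 8 bases, between Scn3a and Scn4b. Exon and UTR positions were not analysed here, and whether a probe also reads a paralog was not tested.

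Of 33469 RefSeq promoter windows (GRCr8, 250 bases before to 50 after the start), 5 belonged to members, those of Scn2a, Scn3a, Scn8a, Scn2b and Scn4b. The glucocorticoid receptor half-site AGAACA, searched on both strands, was in the windows of Scn2a and Scn4b and in 20.7% of all windows. The full palindromic glucocorticoid response element was in 0 of the 5 and in 0.0149% of all windows. These are letter matches and not sites.

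Values below are normalised log2 intensities, which compare animals for 1 probe and never 1 probe with another. Groups were compared with limma over all 21533 tested probes, with Benjamini-Hochberg adjusted p-values and a threshold of 0.05.

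Scn2a, the alpha subunit of excitatory neurons, had its highest mean in control animals and its lowest in betamethasone animals, and the gene was chosen for its low betamethasone values. Its values were 13.86, 13.72, 13.67 and 13.66 in ketamine animals, 13.39, 13.39, 13.56 and 13.49 in betamethasone animals, and 14.20, 14.24, 13.79 and 14.002 in control animals. All 4 ketamine animals were above all 4 betamethasone animals, and all 4 betamethasone animals were below all 4 control animals, while the ketamine and control animals overlapped. On the linear scale, the processed signal averaged 8755 ± 889 in ketamine animals, 6655 ± 290 in betamethasone animals and 11956 ± 1988 in control animals (SD, n = 4 each). The 41 spots around the Scn2a spot departed from the other arrays by a median of 0.22 and 0.05 log2 units on the control arrays. That median was -0.08 on both betamethasone arrays, and 0.01 and -0.01 on the ketamine arrays. The Scn2a spot departed by 0.56 and 0.23 on the control arrays, -0.40 and -0.26 on the betamethasone arrays, and 0.13 and -0.13 on the ketamine arrays. The part of this local shift in the Scn2a values was not tested.

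The log2 difference of ketamine minus betamethasone animals for Scn2a was 0.27 (SE 0.13, unadjusted 95% interval -0.02 to 0.55), and it did not pass limma's test (adjusted p = 0.910). It turned to -0.30 under loess with array medians in place of Aquantile. Ketamine minus control was -0.33 (SE 0.13), with an adjusted p of 0.325 in the same limma fit. Betamethasone minus control was -0.60 (SE 0.13), a ratio of 0.661, given as a description because the choice of the gene used it. These comparisons share samples, the betamethasone animals or the control animals, so they are not independent of each other. Over the settings run, betamethasone minus control of Scn2a lay between -1.63 with the deposited value table and -0.19 with loess and array medians alone. Under the deposited value table all probes shifted by a median of -1.11 in that comparison. Every setting reused the values by which Scn2a was chosen, on the same 2 slides, so its constant sign is no support.

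**Figure D1:**
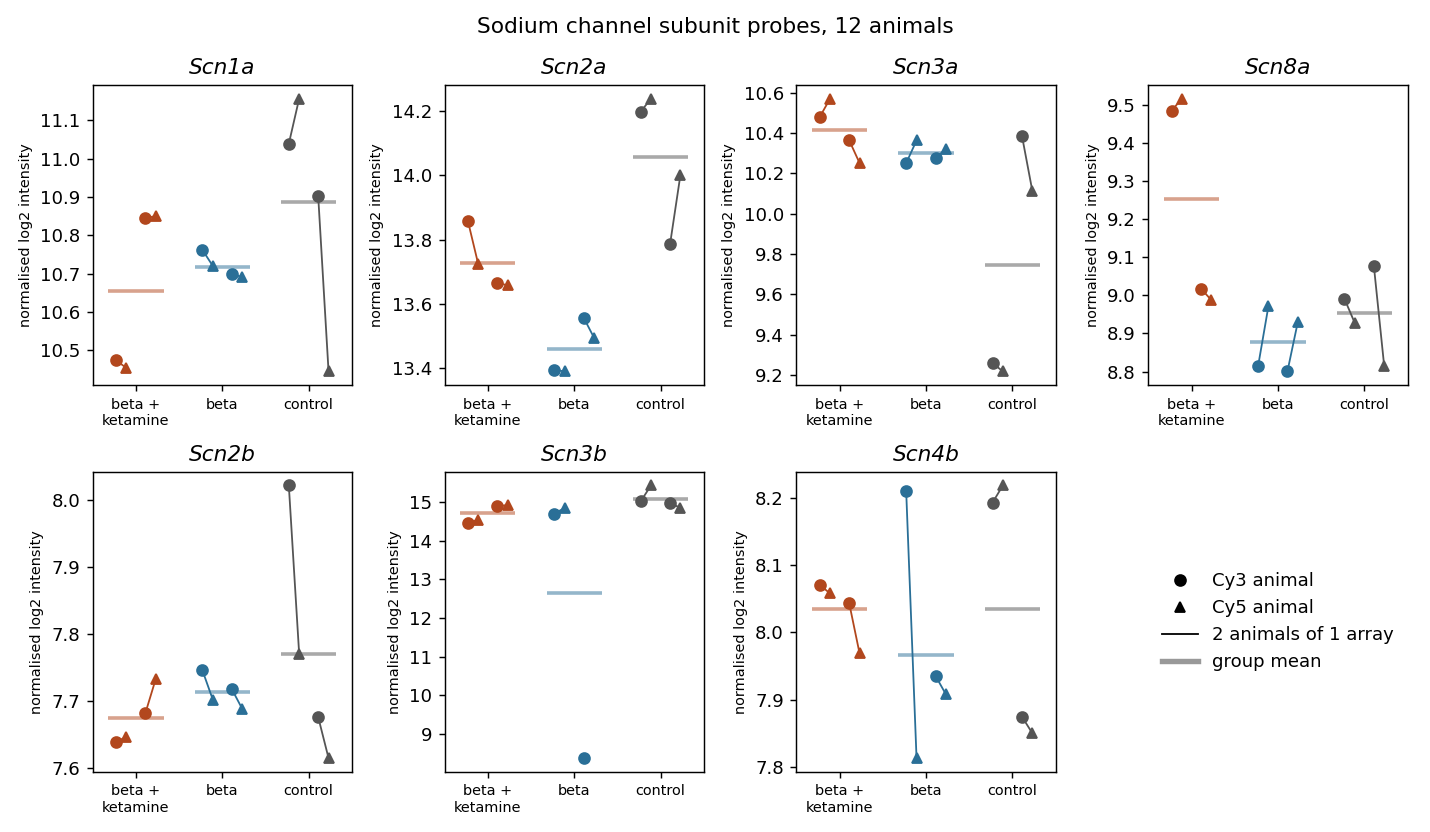
Normalised log2 intensity of the 7 sodium channel subunit probes in 12 animals, with ketamine (beta + ketamine), betamethasone (beta) and control animals from left to right. Circles are Cy3 and triangles Cy5 animals, thin lines join the 2 animals of 1 array, and thick bars are group means. The betamethasone animals of Scn2a lie below both other groups, and the vertical axes differ between panels.

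Scn8a, the alpha subunit of mature axon initial segments and nodes, was high on 1 ketamine array. Its values were 9.49, 9.52, 9.02 and 8.99 in ketamine animals, 8.81, 8.97, 8.80 and 8.93 in betamethasone animals, and 8.99, 8.93, 9.08 and 8.81 in control animals. The first 2 ketamine animals, which shared an array, were above every other animal, and the other 2 were just above the betamethasone animals. Ketamine minus betamethasone was 0.37 (SE 0.16, unadjusted 95% interval 0.02 to 0.73) with a limma adjusted p of 0.910. The fit used 1 array correlation for all probes. For Scn8a the ketamine animals differed by 0.03 within each array and by 0.50 between the array means, so nothing is read from the lower end of that interval. Without the array of ketamine animals 1 and 2 that difference was 0.12, and without the array of animals 3 and 4 it was 0.62. Each of these fits left 1 ketamine array, so array and group cannot be told apart in it. The array of animals 1 and 2 had the largest share of spots in areas that departed from the other arrays (4.80%), and the Scn8a spot was in none of them. Its 42 surrounding spots there still departed upward by a median of 0.18 log2 units, and the Scn8a spot by 0.56. On the other arrays that median ran from -0.03 to -0.0030. The part of this local shift in the Scn8a values was not tested. Ketamine minus control was 0.30 (SE 0.16, limma adjusted p = 0.422), and betamethasone minus control was -0.07 (SE 0.16).

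Scn3a, the early alpha subunit, differed mainly between the 2 control arrays. It had 10.48, 10.57, 10.36 and 10.25 in ketamine animals, 10.25, 10.36, 10.28 and 10.32 in betamethasone animals, and 9.26, 9.22, 10.39 and 10.11 in control animals. Control animals 1 and 2, on 1 array, were on average 1.01 below control animals 3 and 4, which overlapped both other groups. The surroundings of that spot on the array of control animals 1 and 2 included 7 of 39 spots that departed by over 1 log2 unit from the other arrays. Ketamine minus control was 0.67 (SE 0.25, limma adjusted p = 0.314). It was 0.17 without the array of control animals 1 and 2 and 1.18 without that of control animals 3 and 4. A fit with 1 control array left cannot tell array and group apart. Betamethasone minus control was 0.56 (SE 0.25), and 0.05 without the array of control animals 1 and 2. Ketamine minus betamethasone was 0.11 (SE 0.25, limma adjusted p = 0.957).

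Scn1a, the alpha subunit prominent in inhibitory neurons, overlapped between all groups. It had 10.47, 10.45, 10.84 and 10.85 in ketamine animals, 10.76, 10.72, 10.70 and 10.69 in betamethasone animals, and 11.04, 11.16, 10.90 and 10.45 in control animals. The betamethasone animals spanned the narrowest range, and the ketamine animals split by array. On the array of ketamine animals 1 and 2 the Scn1a spot departed from the other arrays by -0.28 log2 units. Its 41 surrounding spots there departed by a median of -0.26. The part of this local shift in the Scn1a values was not tested. The log2 differences were -0.06 for ketamine minus betamethasone, -0.23 for ketamine minus control and -0.17 for betamethasone minus control (SE 0.19 each), with limma adjusted p-values of 0.974 and 0.586 for those with ketamine.

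Scn3b, a beta subunit that binds alpha subunits without a disulphide bond, could not be measured on 1 betamethasone array. It had 14.46, 14.54, 14.89 and 14.92 in ketamine animals, 14.70, 14.84 and 8.38 in the 3 betamethasone animals with a value, and 15.01, 15.43, 14.97 and 14.85 in control animals. The value of 8.38 and the missing value come from the same single spot, on the array of betamethasone animals 3 and 4. The mean signal of that spot was 122 in Cy3 and 1914 in Cy5, against at least 12920 in Cy3 and 24094 in Cy5 on the other 5 arrays. Of 38 surrounding spots on that array, 16 departed from the other arrays by over 1 log2 unit, against 0 of 38 around the same spot on each other array.

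With that spot in the fit, the ketamine minus betamethasone difference of Scn3b was 2.63 (SE 1.36, limma adjusted p = 0.910), and betamethasone minus control was -3.00 (SE 1.36). Without that array the mean was 14.70 in 4 ketamine animals, 14.77 in 2 betamethasone animals and 15.07 in 4 control animals, and ketamine minus betamethasone was -0.07. Ketamine minus control was -0.36 (SE 1.35, limma adjusted p = 0.916), an SE that the dark spot also sets.

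**Figure D2:**
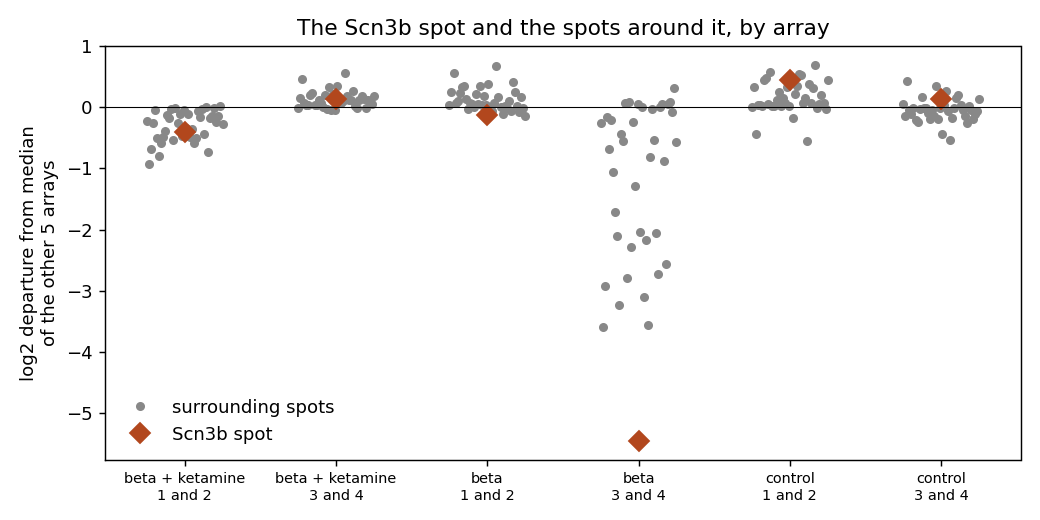
Departure of the Scn3b spot (diamond) and its surrounding spots (grey points) on each of 6 arrays, in log2 units from the median of the other 5 arrays, with ketamine, betamethasone and control arrays from left to right. The Scn3b spot of the array of betamethasone animals 3 and 4 departs by -5.45, and 16 of its 38 surrounding spots depart by over 1 unit.

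Scn2b and Scn4b, which form disulphide bonds with alpha subunits, showed overlapping values in all groups. Scn2b had 7.64, 7.65, 7.68 and 7.73 in ketamine animals, 7.75, 7.70, 7.72 and 7.69 in betamethasone animals, and 8.02, 7.77, 7.68 and 7.61 in control animals. Control animal 1 was highest and control animal 4 lowest. The differences were -0.04 for ketamine minus betamethasone, -0.10 for ketamine minus control and -0.06 for betamethasone minus control (SE 0.11 each), with limma adjusted p-values of 0.970 and 0.699 for those with ketamine. Scn2b was dim, with mean processed signals of 29.8, 32.5 and 51.5 in ketamine, betamethasone and control animals. No absence of change is read from its small differences.

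Scn4b had 8.07, 8.06, 8.04 and 7.97 in ketamine animals, 8.21, 7.81, 7.94 and 7.91 in betamethasone animals, and 8.19, 8.22, 7.87 and 7.85 in control animals. Its probe was printed in 10 spots, whose SD within a sample had a median of 0.09 and ran from 0.05 to 0.20. The means of the 2 control arrays differed by 0.34, more than the SD of the spots in any sample. Betamethasone animals 1 and 2, on 1 array, differed by 0.40, with 7 spots kept in animal 1. Ketamine minus betamethasone was 0.07 (SE 0.14, unadjusted 95% interval -0.25 to 0.38, limma adjusted p = 0.955). Ketamine minus control was 0.0013 (SE 0.14, unadjusted 95% interval -0.31 to 0.32, limma adjusted p = 0.997), and betamethasone minus control was -0.07 (SE 0.14). Scn4b was also dim, with mean processed signals of 64.2, 51.0 and 77.5 in ketamine, betamethasone and control animals.

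**Figure D3:**
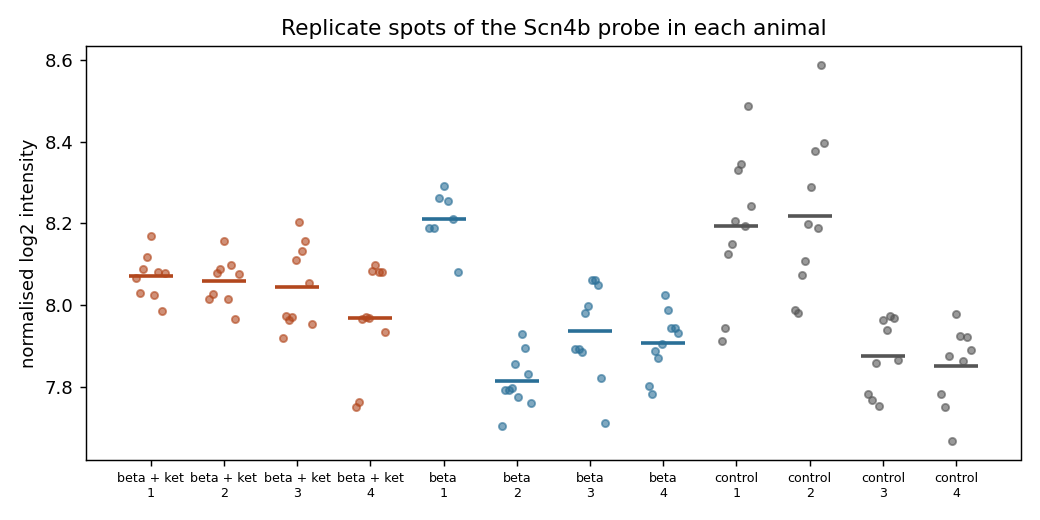
Normalised log2 intensity of the replicate spots of the Scn4b probe (points) and their mean (bar) in each animal, with ketamine (beta + ket), betamethasone (beta) and control animals from left to right. The SD of the spots of 1 animal is at most 0.20. The means of the 2 control arrays differ by 0.34, and betamethasone animals 1 and 2, on 1 array, by 0.40.

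Across the 7 members, 0 passed the threshold between ketamine and betamethasone animals, where 0% of all tested probes did (0 of 21533 in limma, with 680, or 3.16%, at an unadjusted p under 0.05). Between ketamine and control animals 0 of 7 passed, against 0.0789% of all probes. Between betamethasone and control animals 0 of 7 passed, against 0.214% of all probes, and nothing is read from that count. Groups did not overlap for 2 members between ketamine and betamethasone animals (Scn2a and Scn8a, both higher with ketamine), where 2.68% of all probes were higher without overlap. The betamethasone values of Scn2a are those that the choice of the gene used, so its place in that count is a description. No member's ketamine and control animals were free of overlap, against 15.6% of all probes. For betamethasone against control animals these were Scn2a and Scn3b, both lower, against 7.18% of all probes, and nothing is read from that count. Without the dark spot, the 2 remaining betamethasone animals of Scn3b reached 14.842, just below the lowest control animal at 14.847.

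The median log2 difference of the members was 0.11 for ketamine minus betamethasone (0.09 without Scn3b, all probes 0.05), -0.10 for ketamine minus control (-0.05 without Scn3b, all probes 0.07) and -0.07 for betamethasone minus control (also -0.07 without Scn3b, all probes 0.03). The animals of 1 array differed by a median of 0.06 over the members, and the 2 arrays of a group by 0.18, leaving out the betamethasone values of Scn3b. With 2 arrays per group, the median half-width of the unadjusted 95% interval over all probes was 0.32.

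**Figure D4:**
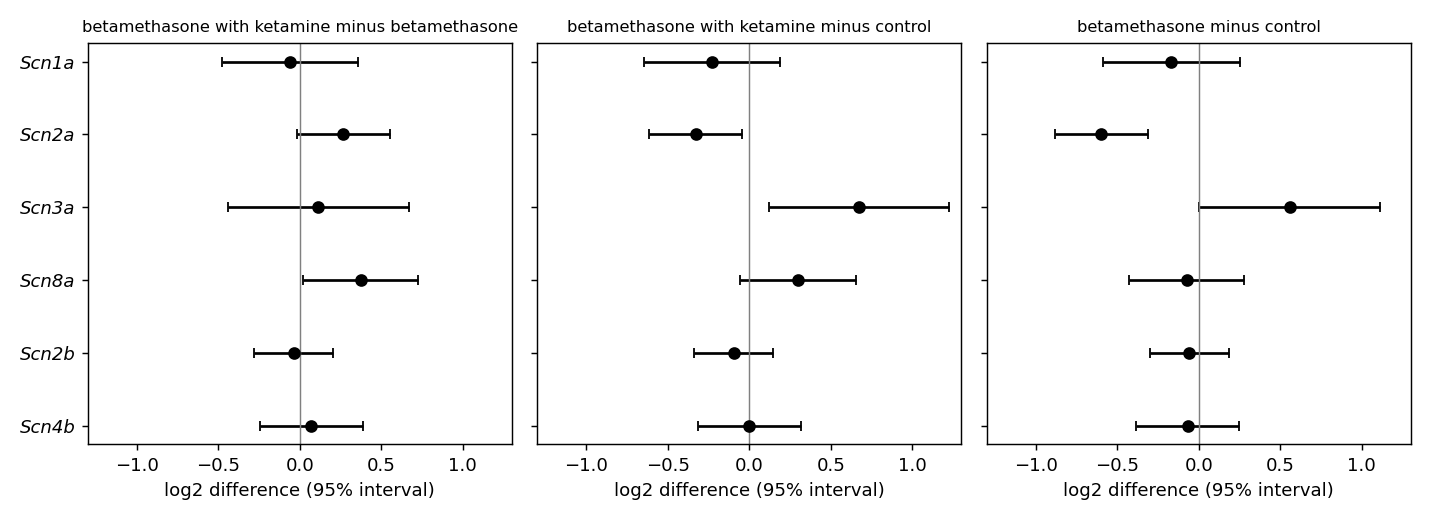
Log2 difference and unadjusted 95% interval of 6 sodium channel subunit probes in 3 comparisons, from left to right ketamine minus betamethasone, ketamine minus control and betamethasone minus control. Scn3b is left out because its interval spans several log2 units, and the last panel is a description, since the choice of Scn2a used it.

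The other sodium channel subunits and the sodium leak channel Nalcn gave 0 of 8 tested probes past the threshold in each comparison. Scn7a and Scn10a failed the filter on dim probes.

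Genes that anchor, modify or turn over sodium channels were read from a list of 31, of which 29 were tested in 42 probes. None passed the threshold in any of the 3 comparisons (smallest limma adjusted p 0.910, 0.225 and 0.110). By gene, 21 were higher and 8 lower in ketamine than in betamethasone animals, 17 higher and 12 lower in ketamine than in control animals, and 10 higher and 19 lower in betamethasone than in control animals. Over all tested probes, 36.8%, 36.0% and 43.7% were lower in the same comparisons. Nrcam, an adhesion molecule of the axon initial segment and nodes, averaged 10.76 in ketamine animals, 10.66 in betamethasone animals and 11.09 in control animals, with ketamine minus control of -0.33 (SE 0.09, limma adjusted p = 0.225) and betamethasone minus control of -0.44 (limma adjusted p = 0.110). Its 3 dimmer probes gave smaller differences between betamethasone and control animals, of -0.19, -0.16 and 0.02. Trim46, which organises microtubules of the proximal axon, averaged 13.16 ± 0.16 in ketamine animals, 13.08 ± 0.02 in betamethasone animals and 12.58 ± 0.58 in control animals (SD, n = 4 each). Its differences were 0.59 for ketamine minus control (limma adjusted p = 0.330) and 0.50 for betamethasone minus control (limma adjusted p = 0.462). Nalf1, an auxiliary protein of the sodium leak channel, had 0.51 for betamethasone minus control (limma adjusted p = 0.409), and its dimmer probe had -0.28. Tnr, an extracellular matrix protein, averaged 12.32 ± 1.03 in ketamine animals and 13.31 ± 0.13 in control animals (SD, n = 4 each), a difference of -0.98 (limma adjusted p = 0.326), and its dimmer probe had 0.06. For ketamine minus betamethasone, Cntn2, an axonal adhesion molecule, had 0.42, Bace1, a protease that cleaves beta subunits, had -0.37, and Sptbn4, a spectrin of the axon initial segment, had 0.21 (limma adjusted p = 0.910 for each).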

How the data were processed

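The data were scanner intensity values of 6 Agilent 2-colour arrays, made with Feature Extraction 11.5.1.1 (control slide) and 11.0.1.1 (other slide) per the file headers, while the submitters' processing notes name 10.7.3.1. The processed signals are deposited intensity values after background subtraction and dye normalization, per the file headers. The deposited value table holds a ratio per sample, each spot's background-subtracted signal over its column's median. In it, the columns of control animals 1 and 2 match the scanner values of control animals 3 and 4 and the reverse, so it served only as an alternative.

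From the deposited intensity values, mean foreground was corrected by median local background with normexp (offset 50), normalised by loess within and Aquantile between arrays, and taken as log2, with each channel a sample and outlier spots left out. Probes were kept if well above background in 3 or more of a group's 4 samples, and those with at least 3 values per group were tested (21533) with limma 3.58.1 (R 4.3.3, statmod 1.5.0) in 1 model of all 12 samples, with a dye term and the array as a random block (correlation 0.555). Scn3b has 1 betamethasone value missing in that fit. Between 71.4% and 81.5% of spots were well above background per sample. The model was checked on simulated data.

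The members and lists were chosen with earlier results of these data known. All members were named, partner genes were named as the 3 with the smallest p per comparison, and the 5 probes most alike to Scn2a and to Scn2b were taken by Pearson correlation. Some items that these rules name are not reported here. No pairing by replicate number was seen (12 pairs, correlations of -0.07 to 0.04). The correlations of replicates 1 and 3 were equal, as were those of 2 and 4, so the 12 are not independent values.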

Additional observations from a re-analysis of the deposited data

How the results depend on the processing

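Up to 33 alternatives were run per member, and 2 of them were chosen after seeing the data. One masked areas of the array surface in windows of 9 rows by 5 columns, after a larger window had missed the dark Scn3b spot. The other centred the deposited value table on 14982 tested probes with a value in every column, after the planned centring on each column's median had changed nothing. Under the deposited value table, both as deposited and re-centred as planned, all probes shifted against control by a median of -1.03 with ketamine and -1.11 with betamethasone, 4 of 6 members passed for ketamine minus control and 5 of 6 for betamethasone minus control, and 4 differences reversed: for ketamine minus control Scn3a to -0.31, Scn8a to -0.78 and Scn4b to -1.33, and for betamethasone minus control Scn3a to -0.46. Centred on shared probes, those shifts were 0.03 and -0.0043, 0 members passed, and only Scn4b reversed, from 0.0013 to -0.28 for ketamine minus control. With processed signals, ketamine minus betamethasone reversed for Scn1a (0.22 under quantile and under 75th percentile scaling) and Scn3a (-0.0192 and -0.0161), and ketamine minus control of Scn3b was 0.0783 under 75th percentile scaling, which moved the median of all probes to 0.19. With loess and array medians, ketamine minus betamethasone reversed for Scn2a (-0.30), Scn3a (-0.27) and Scn2b (0.53), ketamine minus control for Scn4b (-0.0057) and betamethasone minus control for Scn1a (0.0899). Without the array block, 1 member passed for betamethasone minus control.

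Leaving out samples or arrays gave 0 to 1 members past the threshold for ketamine minus betamethasone, 0 to 1 for ketamine minus control and 0 to 2 for betamethasone minus control. Counts above 0 came without the arrays of control animals 3 and 4, ketamine animals 1 and 2 or ketamine animals 3 and 4. Each of these fits left 1 group with 1 array, so nothing is read from those counts. The ranges of differences that changed sign were -0.25 to 0.13 (Scn1a), -0.0699 to 2.77 (Scn3b) and -0.0076 to 0.16 (Scn4b) for ketamine minus betamethasone, -0.22 to 0.0295 (Scn2b) and -0.17 to 0.17 (Scn4b) for ketamine minus control, and -0.38 to 0.0444 (Scn1a), -0.18 to 0.0681 (Scn2b) and -0.24 to 0.10 (Scn4b) for betamethasone minus control. Apart from the dark spot of Scn3b, the cause of these changes was not tested. With the replicate number as a block, 0 members passed in each comparison and Scn2a stayed at 0.27 for ketamine minus betamethasone (limma adjusted p = 0.944). Over all probes, the calls were 0, 17 and 46 in the 3 comparisons, 1, 861 and 1032 without the array block, 0, 10 and 4 with the replicate block, and 0, 2 and 214 with only the 2 groups compared. Over the other settings they ran from 0 to 4, 0 to 15146 and 0 to 15383, and with samples or arrays left out from 0 to 2571, 3 to 3490 and 3 to 510.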

Other observations

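Named genes whose probes followed Scn2a closely over the 12 samples, among the 5 closest of 15739 probes searched, were Supt20h (Pearson r = 0.942), Ina (0.941), Tmem87b (0.934) and Hspe1 (0.927). Ina, which encodes the neurofilament protein alpha-internexin, had a log2 difference of 0.31 for ketamine minus betamethasone, -0.50 for ketamine minus control and -0.81 for betamethasone minus control. For Scn2b the closest were Otud7b (0.919), Atf4 (0.898), Tmem52b (0.895), Krt42 (0.894) and Fmn1 (0.892). These are descriptions with no test, since the samples share arrays and slides and the genes were picked as the highest of many. The group differences of Ina are also bound to its choice by likeness to Scn2a, itself chosen for its low betamethasone values. Within groups, the correlation of Ina with Scn2a was 0.738.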
